A study of Mus musculus with 6 samples.

Results

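The genes described here encode the chains of the collagens, the main structural proteins of the extracellular matrix. They were chosen by symbol, as every gene named Col, a type number, the letter a and a chain number that an array probe set listed alone. Of 42 such genes, Col7a1 and Col17a1 were set aside, which left 40 of the 18193 genes measured. All cells of the bulge region were isolated from vibrissa (whisker) follicles of mice aged 7 to 8 weeks, by dissection and enzyme treatment, without a stated sort. In each of 3 repeats the cells were divided between NFFSE medium, which contained EGF, and NFFS medium, which lacked it, and the comparison asks what the withdrawal of EGF changed. Both media contained Noggin, which blocks BMP signaling, FGF-7, FGF-10 and SAG, an agonist of the hedgehog pathway. In both groups the cells grew for 6 days in a gel of atelocollagen, a type I collagen without its telopeptide ends, and 1 array was run for each culture. The sources used here do not give the mouse strain of these cultures. The arrays read mRNA, so the collagen protein of the gel did not enter the values. The 6 epithelial markers examined (Krt5, Krt14, Trp63, Cdh1, Epcam and Itga6) were above background on all 6 arrays.

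Collagen chains wind around each other into a rope-like helix, which needs prolines to be hydroxylated in the endoplasmic reticulum before the molecule can be secreted. Fibrillar collagens (types I, II, III, V, XI, XXIV and XXVII) form the fibrils of connective tissues such as the dermis and cartilage. Types V and XI set where a fibril starts and how thick it becomes. Type IV forms the sheet of the basement membrane, on which the epithelial cells of the follicle sit, and types XV and XVIII lie in the same zone. FACIT collagens, such as types XII, XIV and XVI, bind to the surface of fibrils, type VI forms beaded filaments, type VIII forms short-chain networks, and types XIII, XXIII and XXV span the cell membrane. In skin, most fibrillar collagen is known to come from fibroblasts, whereas epithelial cells contribute to the basement membrane.

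The deposited values are MAS5 signals, in which the authors summarized each probe set as 1 linear intensity. Each gene was read from its brightest probe set, and its log2 signals were compared with limma, a linear model with moderated variances. A gene was called changed at a Benjamini-Hochberg adjusted p under 0.05 over all genes, and every log2 difference is NFFSE minus NFFS. By this rule 2002 of the 18193 genes rose and 2771 fell in NFFSE, with a median log2 difference of -0.011. With each array centered on its median, the counts were 2911 higher and 1784 lower and that median was 0.19. A signal at or under 22.7, the highest value of control probe sets for a transcript that mouse cells lack, was taken as background. Genes whose means lay below the 40th percentile in both media (68.0 in NFFSE and 71.2 in NFFS) were called dim. RNA integrity can be read from the Gapdh control probe sets, whose 3' minus 5' log2 signal was -0.37 ± 0.011 in NFFSE against -0.62 ± 0.017 in NFFS (SD, n = 3 each; two-sided exact permutation p = 0.1, which 3 arrays against 3 cannot go below). The same value of Actb was 0.27 ± 0.019 against 0.33 ± 0.059 (SD, n = 3 each; exact permutation p = 0.3), and the part of RNA integrity in the results was not tested.

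The collagen chains that changed were lower in NFFSE, with Col8a1 as the exception. Of the 40 chains, 15 were lower in NFFSE (37.5%) where 15.2% of all genes were, 1 was higher (2.5%) where 11.0% of all genes were, and 24 did not pass the test. The median log2 difference of the 40 chains was -0.47, and -0.27 with each array centered on its median. The 15 lower chains were Col1a2, Col5a1, Col5a2, Col11a1 and Col27a1 of the fibrillar group, Col4a1, Col4a4, Col4a5, Col4a6 and Col18a1 of the basement membrane, the FACITs Col12a1, Col14a1 and Col16a1, Col6a1 of the beaded filaments and the transmembrane Col25a1. Col8a1 is a chain of the type VIII network. For each of these 16 chains the arrays of the media did not overlap, which also fixes the direction of the 3 pairs from the same repeat. The chains were chosen by a test on the same arrays, so this is a description and adds no evidence. Of the 40 chains 18 were dim in both media, and between 7 and 13 of the 40 were at background on any 1 array. No such filter was applied before the test.

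**Figure D1:**
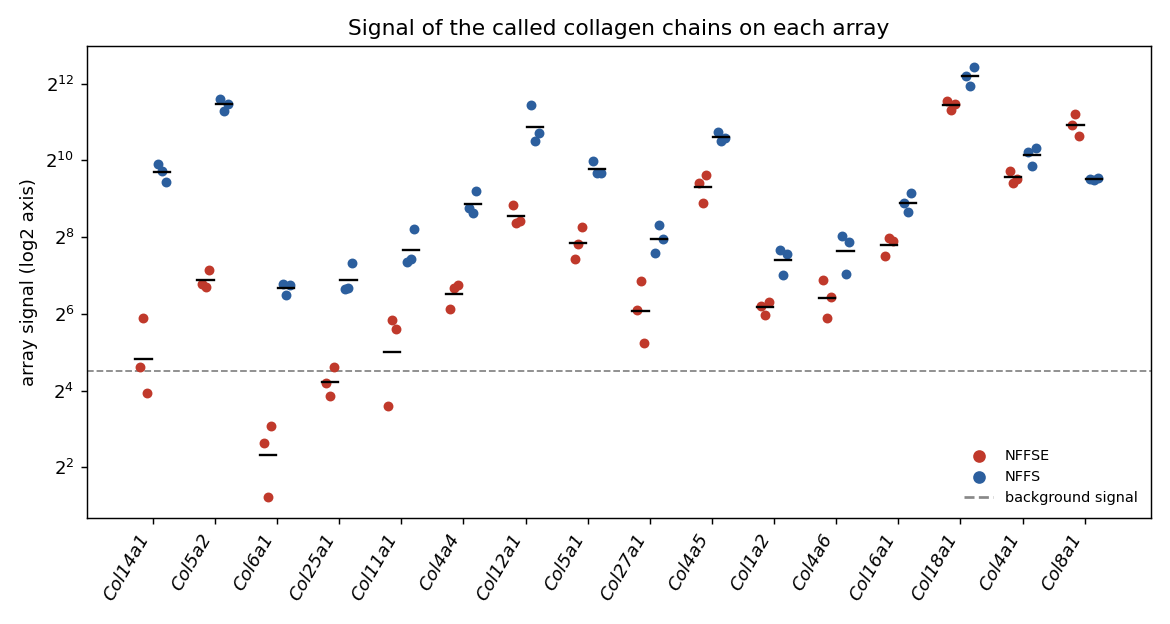
Array signal (vertical log2 axis) of the 16 collagen chains that passed the test, with 1 point for each array (red, NFFSE, and blue, NFFS) and a bar at the mean of the 3 log2 signals. The dashed line is the background signal of 22.7. The blue points lie above the red points for the 15 lower chains and below them for Col8a1, and NFFSE points of Col14a1, Col6a1, Col25a1 and Col11a1 fall under the line.

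**Figure D2:**
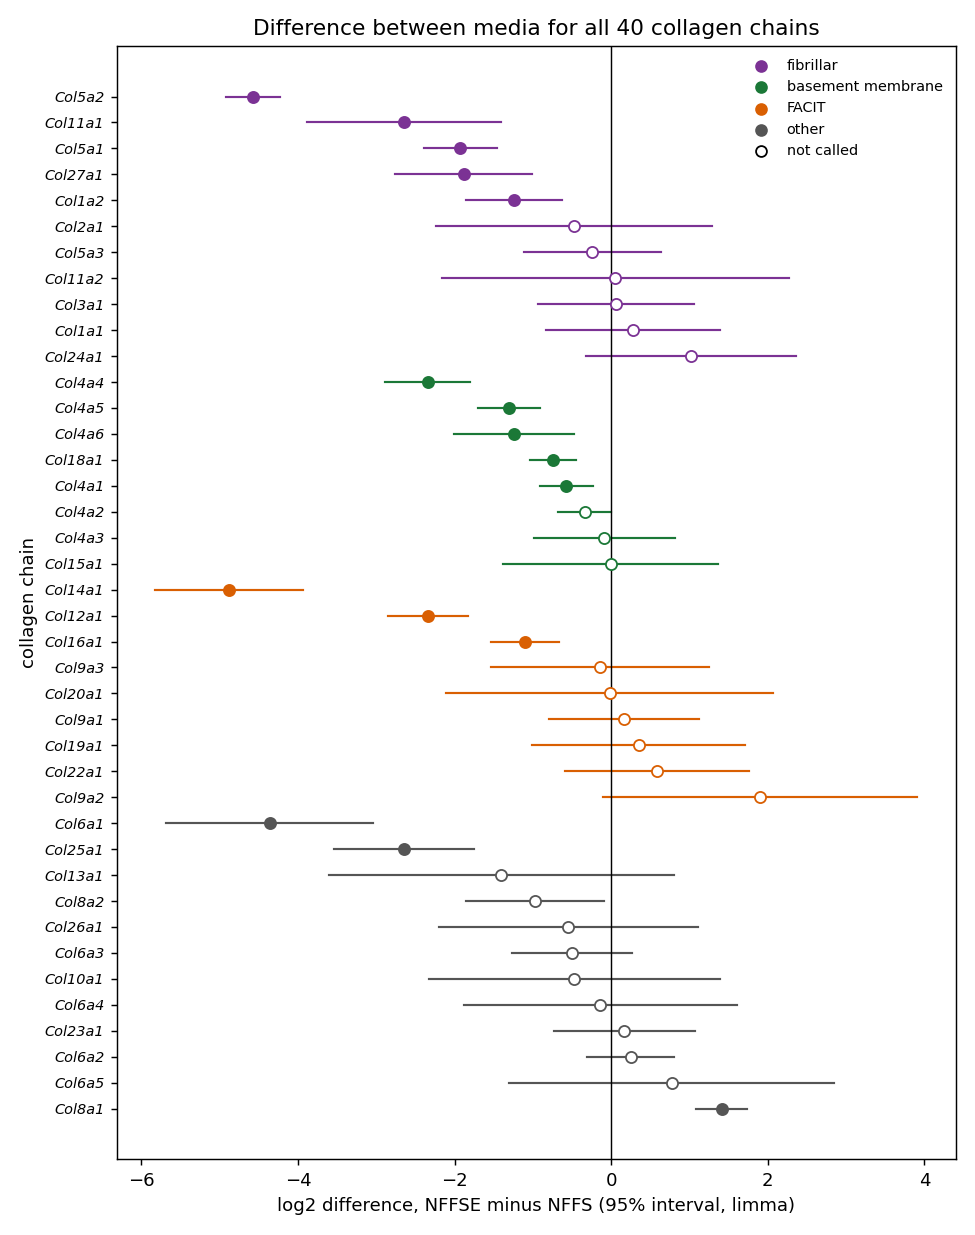
Log2 difference (NFFSE minus NFFS) of all 40 collagen chains with its 95% confidence interval from limma, colored by group and ordered within it. Filled points passed the test and open points did not. The filled points lie to the left of 0 except for Col8a1, and the interval of Col4a2 reaches 0.

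Sequences upstream of chains that changed in both directions are shown here for 3 genes with 1 promoter entry each. The promoters are from RefSeq (GRCm38.p6), whose table held 31 of the 40 chains, 28 of them with 1 entry. Each line runs 5' to 3' on the strand of the gene, from position -250 to -51 before the start of transcription, and capitals mark matches to the motifs searched. Col5a1 was lower (chr2:27886175-27886374, plus strand), Col16a1 was lower (chr4:130047590-130047789, plus strand) and Col8a1 was higher in NFFSE (chr16:57754788-57754987, minus strand).
Col5a1: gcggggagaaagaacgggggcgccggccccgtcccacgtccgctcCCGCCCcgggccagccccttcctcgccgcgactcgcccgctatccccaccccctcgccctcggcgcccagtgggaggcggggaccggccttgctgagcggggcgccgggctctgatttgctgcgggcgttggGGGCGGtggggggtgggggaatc
Col16a1: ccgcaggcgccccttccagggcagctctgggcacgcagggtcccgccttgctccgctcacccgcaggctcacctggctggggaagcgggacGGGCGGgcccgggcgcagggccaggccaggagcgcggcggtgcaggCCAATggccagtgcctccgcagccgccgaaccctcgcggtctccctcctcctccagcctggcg
Col8a1: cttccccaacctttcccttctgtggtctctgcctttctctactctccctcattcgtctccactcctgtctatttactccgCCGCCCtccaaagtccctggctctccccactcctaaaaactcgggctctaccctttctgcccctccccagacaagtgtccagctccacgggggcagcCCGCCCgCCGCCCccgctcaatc
The motifs were the TATA box (TATAAA), the CCAAT box (CCAAT), the GC box (GGGCGG) and the AP-1 site (TGANTCA), each read on both strands. In Col5a1 the capitals are GC boxes at -205 to -200 and -73 to -68. In Col16a1 they are a GC box at -159 to -154 and a CCAAT box at -113 to -109, and in Col8a1 GC boxes at -170 to -165, -73 to -68 and -66 to -61. Over the whole window of 300 bases, which adds the 50 bases after the start, the GC box was found in 35.7% of all 32851 promoters, in 9 of 11 lower chains with 1 entry, in the 1 higher chain and in 8 of 16 chains that did not pass. The CCAAT box was found in 37.4% of all promoters, 6 of the 11 and 3 of the 16, the TATA box in 13.6%, 0 of the 11 and 4 of the 16, and the AP-1 site in 7.81%, 1 of the 11 and 0 of the 16. These are matches of letters, given as a description.

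Among the fibrillar chains, Col5a1, Col5a2 and Col11a1, which belong to the fibril-nucleating types V and XI, were lower in NFFSE, and Col1a1 and Col3a1, major chains of dermal fibrils, were dim in both media. Of 11 fibrillar chains 5 were lower in NFFSE (45.5%, against 15.2% of all genes) and 6 did not pass the test. Their median log2 difference was -0.47. Col5a2, the second chain of type V collagen, had signals of 111, 105 and 141 in NFFSE and 3109, 2514 and 2852 in NFFS. The highest NFFSE array was thus far below the lowest NFFS array. The means were 119 ± 19.6 in NFFSE against 2825 ± 298 in NFFS (SD, n = 3 each), and the signal was 23.9-fold lower in NFFSE (log2 difference -4.58, 95% interval -4.92 to -4.23, adjusted p = 1.9e-07, limma). Col5a1, which forms type V molecules with Col5a2, had signals of 174, 228 and 308 in NFFSE and 1010.2, 814 and 816 in NFFS, with no overlap. It was 3.80-fold lower (log2 difference -1.93, interval -2.39 to -1.46, adjusted p = 9.4e-05, limma), and the mean of its 3 probe sets gave -1.08. Col5a3, a chain with a more restricted distribution, had means of 65.5 ± 25.1 in NFFSE against 73.5 ± 13.3 in NFFS (SD, n = 3 each) and did not pass (log2 difference -0.24, interval -1.12 to 0.64).

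Col11a1, a chain of type XI collagen, which lies in the core of cartilage fibrils, had signals of 12.1, 57.3 and 49.0 in NFFSE and 163, 171 and 299 in NFFS. The NFFSE arrays were all lower than the NFFS arrays, and 1 of them was at background, so that the signal was at least 5.07-fold lower (log2 difference -2.64, adjusted p = 0.0056, limma). That log2 difference was -1.93 without NFFSE replicate 1 and -3.55 with the mean of its probe sets. Col27a1, a fibrillar chain of cartilage and other tissues, had signals of 69.1, 116 and 37.8 in NFFSE and 192, 321 and 249 in NFFS. It was 3.70-fold lower in NFFSE without overlap (adjusted p = 0.0053, limma), although the values spread widely within each medium. Under the methods' t-test both calls were lost after adjustment (adjusted p = 0.10 for Col11a1, in a range of 0.00063 to 0.10 over its alternatives, and 0.090 for Col27a1), and that of Col27a1 also with signals under the background raised to it (adjusted p = 0.054, limma, in a range of 0.00046 to 0.090).

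Type I collagen was measured by both of its chains. Col1a2 had signals of 74.4, 62.6 and 79.6 in NFFSE and 204, 129 and 187 in NFFS, so that every NFFS array was higher, and was 2.37-fold lower in NFFSE (log2 difference -1.24, interval -1.86 to -0.63, adjusted p = 0.0074, limma). With the mean of its 3 probe sets, of which 1 was at background on all 6 arrays, the log2 difference was -1.84 and the call ended (adjusted p = 0.090, limma, in a range of 0.0035 to 0.090 over all alternatives). Col1a1, its partner, had signals of 54.9, 43.3 and 24.9 in NFFSE and 41.9, 39.2 and 20.2 in NFFS, which overlapped. Its log2 difference was 0.28 with an interval of -0.83 to 1.39 (adjusted p = 0.75, limma). Col3a1, the only chain of type III collagen, had signals of 33.1, 36.3 and 25.4 in NFFSE and 31.5, 23.6 and 36.1 in NFFS, again with overlap, and a log2 difference of 0.062 (interval -0.93 to 1.06, adjusted p = 0.94, limma). Both lay close to background in these cultures, and a difference within these intervals was not detectable. Col2a1 and Col24a1 were at background on all 6 arrays.

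In the basement membrane group, chains of each of the type IV networks were lower in NFFSE, by folds from 1.49 to 5.08 among those that passed. Of 8 chains 5 were lower (62.5%, against 15.2% of all genes) and 3 did not pass, with a median log2 difference of -0.66. Col4a4, a chain of the network that also holds Col4a3 and Col4a5, had signals of 69.3, 102 and 109 in NFFSE and 436, 396 and 585 in NFFS. No NFFSE array reached the NFFS range, and the signal was 5.08-fold lower (log2 difference -2.35, interval -2.89 to -1.81, adjusted p = 7.3e-05, limma). Col4a3 was dim, with means of 49.4 ± 4.83 in NFFSE against 55.3 ± 23.4 in NFFS (SD, n = 3 each), with overlapping arrays, and a log2 difference of -0.088 (interval -0.99 to 0.81, adjusted p = 0.91, limma). Its other probe set, at background on 2 arrays, had a log2 difference of -1.75.

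Col4a5, which takes part in networks with Col4a3 and Col4a4 and with Col4a6, had signals of 682, 470.3 and 784 in NFFSE and 1714, 1452 and 1525 in NFFS. It was 2.47-fold lower in NFFSE without overlap (log2 difference -1.31, interval -1.70 to -0.91, adjusted p = 0.00043, limma). Col4a6 had signals of 118, 59.7 and 87.5 in NFFSE and 263, 131 and 234 in NFFS, where replicate 2 was the lowest in both media. The difference was 2.36-fold (log2 difference -1.24, interval -2.00 to -0.47, adjusted p = 0.023, limma), and its other probe set gave -2.16. This call ended under 9 of 15 alternatives, among them those that left out NFFSE replicate 2 (0.088 as the adjusted p in limma), NFFSE replicate 3 (0.055), NFFS replicate 1 (0.097) or NFFS replicate 3 (0.085), with a range of 0.0010 to 0.14 over all alternatives.

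Col4a1 and Col4a2 form the network found in nearly all basement membranes. Col4a1 had signals of 852, 685 and 736 in NFFSE and 1199, 924 and 1275 in NFFS and was 1.49-fold lower in NFFSE (log2 difference -0.57, interval -0.91 to -0.24, adjusted p = 0.017, limma). The groups did not overlap but came close to each other. Col4a2 had signals of 690.0, 560.4 and 594 in NFFSE and 914, 652 and 781 in NFFS, with 1 NFFSE array above the lowest NFFS array, and did not pass (log2 difference -0.34, adjusted p = 0.14, limma). The call of Col4a1 ended under 8 of 15 alternatives, among them those that left out NFFSE replicate 2 (0.081 as the adjusted p in limma), NFFSE replicate 3 (0.056), NFFS replicate 1 (0.061) or NFFS replicate 3 (0.072) and the centering of arrays on their medians (0.16), in a range of 0.0039 to 0.16 over all alternatives. Without NFFS replicate 2, Col4a2 was called lower (log2 difference -0.46, adjusted p = 0.044, limma, in a range of 0.044 to 0.64).

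Col18a1, whose end fragment is endostatin, had signals of 2971, 2559 and 2856 in NFFSE and 4735, 3909 and 5499 in NFFS. Every NFFS array was above every NFFSE array, and the signal was 1.67-fold lower in NFFSE (log2 difference -0.74, interval -1.04 to -0.45, adjusted p = 0.0022, limma). Its other probe set gave -0.57. Under the methods' t-test the call was lost (adjusted p = 0.053). Col15a1, the related chain of type XV, was dim in both media.

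Of 9 FACIT chains, Col12a1, Col14a1 and Col16a1 were lower in NFFSE (33.3%, against 15.2% of all genes). The other 6 did not pass the test, and the median log2 difference of the group was -0.017. Col14a1, undulin, had signals of 24.5, 59.2 and 15.4 in NFFSE and 959, 849 and 699 in NFFS. The NFFSE arrays differed widely among themselves but all lay far under the NFFS arrays, and with 1 of them at background the signal was at least 25.9-fold lower (log2 difference -4.88, interval -5.82 to -3.94, adjusted p = 2.6e-05, limma). It remained called with the mean of its probe sets (log2 difference -3.46) and with 16 added to the signals (-4.21). Col12a1, a related chain of dense connective tissue, had signals of 455, 329.8 and 344 in NFFSE and 2772, 1454 and 1675 in NFFS, of which NFFS replicate 1 was the highest. It was 5.07-fold lower in NFFSE (log2 difference -2.34, interval -2.85 to -1.84, adjusted p = 5.1e-05, limma). With the mean of its 4 probe sets, 2 of which were at background on 5 arrays, its log2 difference was -1.25 and the call ended (adjusted p = 0.077, limma, in a range of 1.7e-06 to 0.077).

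Col16a1, a FACIT found near the basement membrane of skin, had signals of 182, 251 and 238 in NFFSE and 470.3, 402 and 568 in NFFS. Its groups were separate and differed 2.14-fold (log2 difference -1.10, interval -1.53 to -0.67, adjusted p = 0.0020, limma). Col22a1, a chain of tissue junctions such as that of muscle and tendon, had overlapping signals of 97.6, 29.2 and 119 in NFFSE and 45.5, 58.2 and 37.7 in NFFS and did not pass (log2 difference 0.59, interval -0.59 to 1.77). The other 5 FACIT chains, Col9a1, Col9a2, Col9a3, Col19a1 and Col20a1, were dim in both media, with Col9a2 and Col9a3 at background on all 6 arrays.

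Of the 12 remaining chains 1 rose (8.33%, against 11.0% of all genes), 2 fell (16.7%, against 15.2%) and 9 did not pass, with a median log2 difference of -0.49. Col8a1 had signals of 1943, 2388 and 1594 in NFFSE and 738, 723 and 739 in NFFS. The NFFS arrays were nearly equal and all lay under the NFFSE arrays, and Col8a1 was 2.66-fold higher in NFFSE (log2 difference 1.41, interval 1.09 to 1.73, adjusted p = 7.2e-05, limma). Its 2 further probe sets gave log2 differences of 1.57 and 1.12. Col8a2, its partner in the type VIII network and dim in both media, had means of 28.6 ± 1.75 in NFFSE against 56.8 ± 11.4 in NFFS (SD, n = 3 each) and did not pass (log2 difference -0.97, adjusted p = 0.10, limma). It is described because Col8a1 changed, a choice made after its values were seen.

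Among the beaded filament chains, Col6a1 was called and Col6a2, its neighbor on chromosome 10, was not. Col6a1 had signals of 6.26, 2.35 and 8.47 in NFFSE and 111, 90.3 and 108 in NFFS. All 3 NFFSE arrays were at background, so that the signal was at least 4.51-fold lower (log2 difference -4.36, adjusted p = 0.00041, limma). With the signals under the background raised to it, the log2 difference of Col6a1 was -2.18, and -2.46 with 16 added. Col6a2 had signals of 127, 174 and 200.1 in NFFSE and 137, 120.0 and 160.1 in NFFS, which overlapped, with a log2 difference of 0.25 (interval -0.31 to 0.81, adjusted p = 0.54, limma). Its other probe set gave the opposite sign, -0.95. Col6a3, the large chain of type VI, had means of 63.9 ± 4.73 in NFFSE against 94.3 ± 33.5 in NFFS (SD, n = 3 each), with overlapping arrays (log2 difference -0.50, interval -1.27 to 0.27), and Col6a4 and Col6a5 were dim and each at background on arrays of both media.

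The transmembrane Col25a1, known from the outgrowth of motor axons, had signals of 18.5, 14.6 and 24.4 in NFFSE and 100.2, 102 and 159 in NFFS. With 2 NFFSE arrays at background and no overlap, it was at least 5.06-fold lower (log2 difference -2.65, interval -3.54 to -1.75, adjusted p = 0.00080, limma). With the mean of its probe sets the log2 difference was -0.83 and the call ended (adjusted p = 0.22, limma, in a range of 0.00048 to 0.22), and it was -1.94 with 16 added to the signals. Col23a1, the related chain of type XXIII, had means of 72.3 ± 16.9 in NFFSE against 68.1 ± 32.7 in NFFS (SD, n = 3 each), with overlapping arrays (log2 difference 0.17, interval -0.73 to 1.07). In all, 13 dim chains of the 4 groups (Col2a1, Col8a2, Col9a1, Col9a2, Col9a3, Col10a1, Col11a2, Col13a1, Col15a1, Col19a1, Col20a1, Col24a1 and Col26a1) had signals between 1.60 and 80.3 and log2 differences between -1.40 and 1.90, none of which passed the test, and 5 of them were at background on all 6 arrays.

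Chains that join in 1 molecule had unequal log2 differences in some pairs and close ones in others. In type V collagen the log2 difference of Col5a2 minus that of Col5a1 was -2.65, and in type I that of Col1a2 minus that of Col1a1 was -1.52. For Col4a4 minus Col4a3 of type IV it was -2.26, and no value is given for Col6a1 and Col6a2 of type VI, as Col6a1 was at background on all 3 NFFSE arrays. Col1a1 and Col4a3 were dim in both media, Col1a1 with 1 NFFS array at background, so a change in them could have been missed. The other probe set of Col4a3 gave a log2 difference of -1.75 for this chain, instead of -0.088. Among the pairs, the values were closest to 0 for Col4a2 minus Col4a1 (0.23) and Col4a6 minus Col4a5 (0.069). The closeness of the latter depends on the probe set, as the other probe set of Col4a6 gave -2.16 for this chain, instead of -1.24. The 5 pairs are given as a description, without a test, as their values were known when they were chosen. Each type IV pair is a pair of neighbors, with no coding gene between them on chromosomes 8, X and 1, and the starts of Col4a1 and Col4a2 lie 21 bases apart on opposite strands. Col3a1 and Col5a2 are also neighbors, on chromosome 1, where Col5a2 was called and Col3a1 was dim.

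Where the array held more than 1 probe set for a called chain, these mostly gave the same direction. The 14 chains concerned had 21 further probe sets, of which 19 differed in the direction of the call. Of the 9 that were above background on all 6 arrays, all 9 did so. The 2 exceptions were a probe set of Col12a1 (log2 difference 0.41) and one of Col25a1 (0.995), each at background on 5 arrays. For Col5a2 the further probe set gave -5.51, with means of 28.5 ± 15.6 in NFFSE against 1177 ± 249.6 in NFFS (SD, n = 3 each), and for Col4a4 the others gave -2.16 and -2.95. Probe sets of a gene share the same RNA, so that they are not independent samples.

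**Figure D3:**
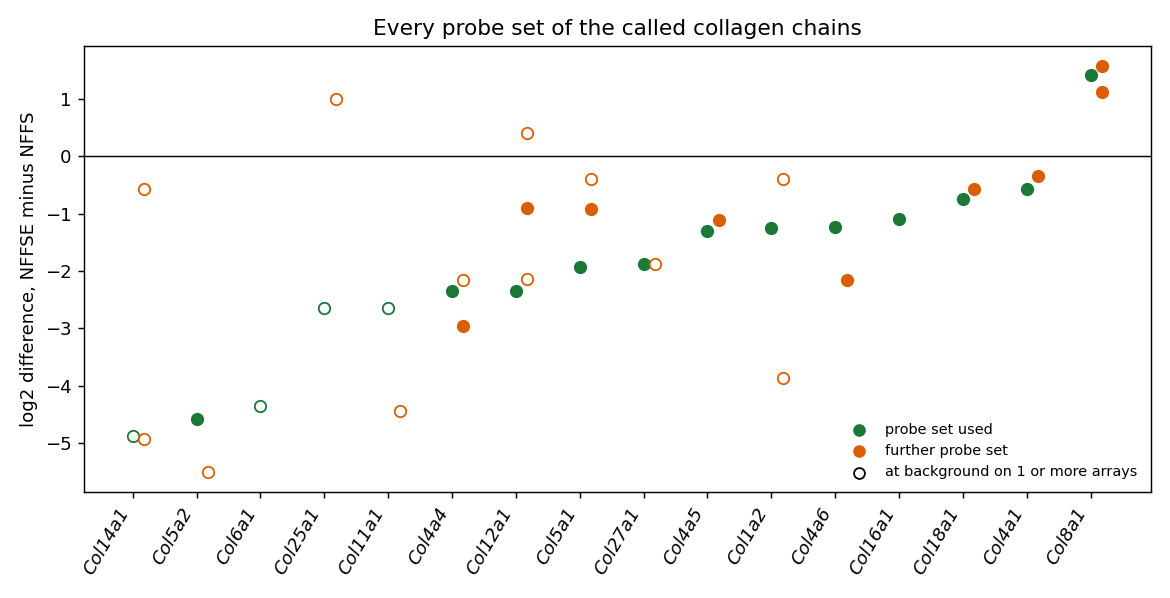
Log2 difference (NFFSE minus NFFS) of every probe set of the 16 called chains, green for the probe set used and orange for further ones, with open points for probe sets at background on 1 or more arrays. Filled orange points share the sign of the green point of their chain, and the 2 points of opposite sign, of Col25a1 and Col12a1, are open.

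Genes that make, bind and degrade collagen moved in both directions. Of 69 listed genes 64 were measured, of which 13 rose in NFFSE (20.3%, against 11.0% of all genes), 11 fell (17.2%, against 15.2%) and 40 did not pass, with a median log2 difference of -0.049. With each array centered on its median, 15 were higher and 8 were lower. In chain modification and folding, 5 of 19 genes were higher (26.3%) and 4 were lower (21.1%), against 11.0% and 15.2% of all genes. P4ha2, a catalytic subunit of the prolyl 4-hydroxylase that stabilizes the helix, had signals of 1515, 1142 and 1554 in NFFSE and 430.5, 255 and 267 in NFFS. It was 4.51-fold higher in NFFSE without overlap (adjusted p = 5.0e-05, limma). P4ha1 (1.63-fold, adjusted p = 0.0022, limma), an alternative catalytic subunit, and P4hb (1.36-fold), the subunit that pairs with either, were also higher. P3h2, a prolyl 3-hydroxylase known for type IV collagen, was 2.91-fold higher, and P3h4, a partner of lysine hydroxylation, 1.54-fold. Serpinh1, also known as HSP47, the chaperone that holds the folded helix, had signals of 3332, 3455 and 4053 in NFFSE and 7942, 8235 and 10100.2 in NFFS. It was 2.42-fold lower in NFFSE (adjusted p = 5.3e-05, limma), every NFFSE array lying under the NFFS arrays. The prolyl isomerase Fkbp14 was 3.32-fold lower, P3h3 2.07-fold and Plod2, which hydroxylates telopeptide lysines, 1.47-fold. P4hb, P3h3 and Plod2 are named to complete the count, a choice made after their values were seen. With the mean of its probe sets Fkbp14 was still called (log2 difference -0.82 instead of -1.73, adjusted p = 0.049, limma, in a range of 7.5e-05 to 0.049), and the call of Plod2 ended under 5 of 15 alternatives and that of P4hb under 3. The subunits P4ha1, P4ha2 and P4hb and the chaperone Serpinh1 thus differed in opposite directions.

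In the class of export from the endoplasmic reticulum and transcription, 1 of 10 genes was higher (Tfg, 1.33-fold) and 1 was lower (Klhl12, 1.40-fold). Each is 10%, against 11.0% and 15.2% of all genes. The log2 difference of Tfg turned from 0.42 to -0.11 with the mean of its probe sets, and that of Klhl12 was -0.29 after centering on array medians, where its call ended (adjusted p = 0.18, limma, in a range of 0.0051 to 0.18). In propeptide removal, 2 of 8 genes were higher and 2 were lower (25% each, against 11.0% and 15.2% of all genes). Higher were Pcolce, an enhancer of C-propeptide cleavage (at least 3.34-fold), and its relative Pcolce2 (2.44-fold). The N-propeptidase Adamts3 (at least 3.95-fold) and the tolloid-like protease Tll1 (at least 2.76-fold) were lower, each with NFFSE arrays at background. The calls ended under 10 of 15 alternatives for Tll1 (adjusted p of 0.025 to 0.16 over all), 6 for Pcolce (0.0042 to 0.12) and 5 for Pcolce2 (0.018 to 0.13), all from limma or the methods' t-test. With probe sets averaged, that of Adamts3 also ended (log2 difference -1.57 instead of -3.13, adjusted p = 0.062, limma, in a range of 0.0011 to 0.10) and Pcolce was at 1.07 instead of 1.77, and Adamts3 was at -2.26 without NFFSE replicate 1, -3.78 without NFFSE replicate 2, -1.98 with the floor at background and -1.92 with 16 added. Among cross-linking enzymes and fibril partners, 2 of 10 were lower (20%, against 15.2% of all genes) and 8 did not pass. Sparc, a collagen-binding glycoprotein, had signals of 2171, 2227 and 2246 in NFFSE and 6309.8, 5706 and 6977 in NFFS, and was 2.85-fold lower in NFFSE (log2 difference -1.51, and -0.87 with the mean of its probe sets, adjusted p = 6.3e-06, limma). Fn1, fibronectin, had signals of 253, 162 and 318 in NFFSE and 1896, 1478 and 1725 in NFFS and was 7.18-fold lower (adjusted p = 1.5e-05, limma). Lox, the lysyl oxidase that cross-links fibrils, was dim, with means of 43.0 ± 9.47 in NFFSE against 40.4 ± 22.3 in NFFS (SD, n = 3 each), with overlapping arrays (adjusted p = 0.78, limma).

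Of the collagen receptors, 1 of 9 was higher and 1 was lower (11.1% each, against 11.0% and 15.2% of all genes). Itga1, the integrin subunit known for binding type IV collagen, had signals of 101, 94.99 and 152 in NFFSE and 825, 882 and 1067 in NFFS. All NFFSE arrays were lower, by 8.12-fold between the means (adjusted p = 6.6e-06, limma). Itgb1, the beta subunit it pairs with, was 1.54-fold higher (adjusted p = 0.00073, limma), a call that was lost when its probe sets were averaged (adjusted p = 0.36, limma, in a range of 0.00033 to 0.36). Itga2, the integrin subunit known for fibrillar collagen, had means of 417 ± 62.6 in NFFSE against 296 ± 125 in NFFS (SD, n = 3 each), with overlapping arrays (log2 difference 0.57, interval -0.044 to 1.18), and without NFFS replicate 2 it was called higher (log2 difference 0.88, adjusted p = 0.016, limma, in a range of 0.016 to 0.48). Ddr1, a receptor tyrosine kinase of collagen, had a log2 difference of -0.11 (interval -0.32 to 0.11) and was called lower with quantile normalization (log2 difference -0.32, adjusted p = 0.035, limma, in a range of 0.035 to 0.91).

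Of 8 genes of collagen degradation, 4 were higher (50%, against 11.0% of all genes), among them 3 metalloproteinases. Of the rest 1 was lower (12.5%, against 15.2% of all genes) and 3 did not pass. These 3 are also metalloproteinases, Mmp14 (log2 difference -0.089), Mmp2 (-0.13) and Mmp8 (1.14, dim in both media), named to complete the count. Mmp13, a collagenase, had signals of 6851, 7144 and 6450.1 in NFFSE and 734, 1673 and 337 in NFFS. The NFFS arrays varied widely but all lay below the NFFSE arrays, and Mmp13 was 9.13-fold higher in NFFSE (adjusted p = 0.00040, limma). Mmp1a, an interstitial collagenase, had signals of 493, 399.7 and 407 in NFFSE and 18.3, 21.2 and 13.5 in NFFS. All 3 NFFS arrays were at background, so that it was at least 19.0-fold higher in NFFSE (adjusted p = 4.3e-06, limma). Mmp9, a gelatinase, was at least 8.23-fold higher with 1 NFFS array at background, and Pepd, which releases proline from dipeptides, 1.45-fold. Ctsk, the collagen-degrading cathepsin K, was at least 2.90-fold lower in NFFSE. The log2 difference of Mmp9, 3.36, was 3.95 without NFFS replicate 1, 2.47 without NFFS replicate 3 and 4.27 with the mean of its probe sets, and that of Mmp1a, 4.64, was 3.74 with 16 added to the signals. Under the methods' t-test the calls of Mmp13 (adjusted p = 0.052, in a range of 2.2e-05 to 0.052 over its alternatives), Mmp9 (0.089, 0.00018 to 0.089) and Ctsk (0.056, 0.0094 to 0.057) were lost.

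**Figure D4:**
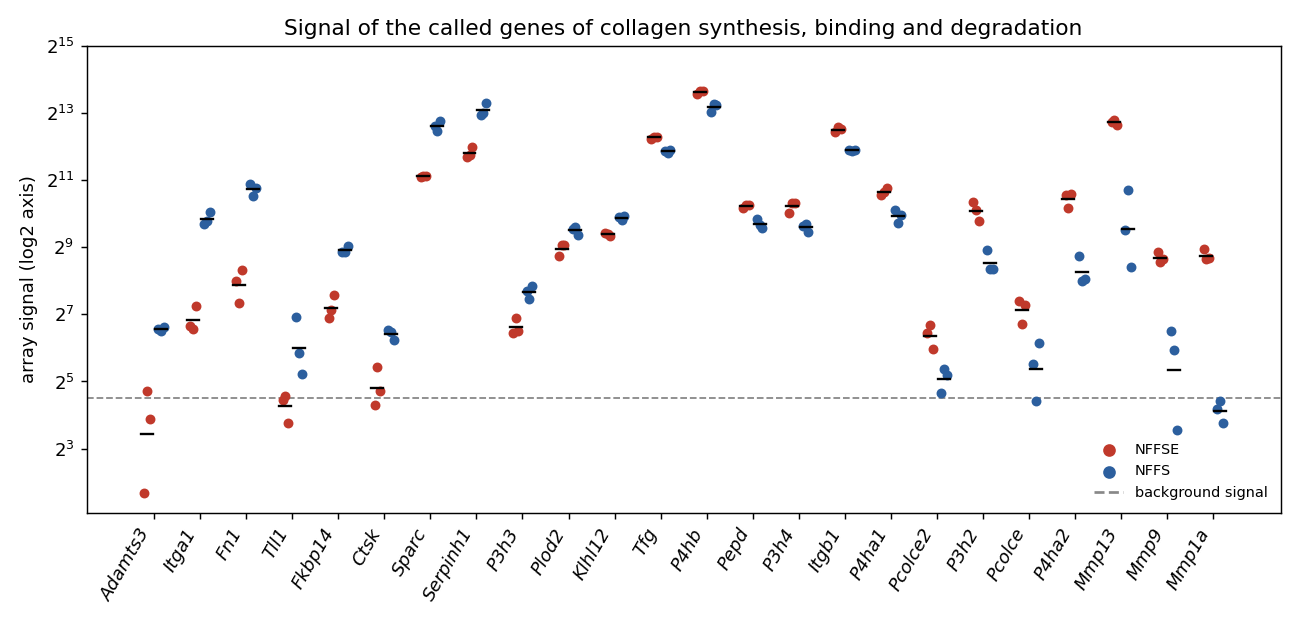
Array signal (vertical log2 axis) of the 24 genes of collagen synthesis, export, cross-linking, binding and degradation that passed the test, with 1 point for each array (red, NFFSE, and blue, NFFS) and a bar at the mean of the 3 log2 signals. From left to right the genes go from the largest decrease to the largest increase in NFFSE, with Serpinh1 and Sparc among the lower genes and Mmp13 and Mmp1a among the higher ones.

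Markers of other cells that make collagen were read beside the chains. Of 10 fibroblast markers that are not collagens, Thy1 (3.05-fold) and Vim (2.31-fold) were lower in NFFSE, Twist2 was higher (4.65-fold) and 7 did not pass. That is 20% lower and 10% higher, close to the 15.2% and 11.0% of all genes. The summed signal of the 10 was 636 to 712 in NFFSE and 605 to 773 in NFFS. It joins opposite changes, so its similar ranges do not show equal fibroblast RNA. Twist2 had means of 221 ± 54.6 in NFFSE against 47.4 ± 11.4 in NFFS, and Vim 111 ± 23.2 against 262 ± 80.8 (SD, n = 3 each). Pdgfra, Pdgfrb, Lum, Dpt and Fap were each at background on some arrays. Of 5 dermal papilla markers, Wif1, a secreted WNT inhibitor, was 14.1-fold lower (20%, against 15.2% of all genes) and 4 did not pass. The sum, most of it Wif1, was 464 to 1559 in NFFSE and 8259 to 10598 in NFFS. Corin and Rspo3 were at background on all 6 arrays. The others went the other way without passing the test, Sox2 with means of 41.6 ± 18.4 in NFFSE against 18.5 ± 2.06 at background in NFFS (adjusted p = 0.16, limma) and Alpl with a log2 difference of 0.42 (adjusted p = 0.73, limma). Of 5 markers of smooth muscle and pericytes, Tagln (at least 27.0-fold) and Acta2 (3.01-fold) were lower (40%, against 15.2% of all genes). The sums, in NFFS mostly Tagln and Acta2, were 126 to 280.3 in NFFSE and 1044 to 1204 in NFFS. Cnn1 was at background on all 6 arrays, Myh11 (log2 difference -0.68) on arrays of both media and Rgs5 (0.23) on 1 NFFSE array. None of these passed the test. The 17 measured markers of endothelium, Schwann cells, melanocytes and leukocytes did not pass in limma, where 15.2% of all genes were lower and 11.0% higher. Of the 17, 1 had an unadjusted p under 0.05, and the ranges of their sums overlapped between the media. Of 6 epithelial markers Krt14 (1.77-fold), Epcam (1.57-fold) and Itga6 (2.42-fold) were higher in NFFSE (50%, against 11.0% of all genes). Krt5 (log2 difference 0.34, adjusted p = 0.062, limma), Trp63 (-0.24, 0.11) and Cdh1 (-0.067, 0.71) did not pass, Trp63 and Cdh1 with the opposite sign. The sum, with Krt5 as its largest part, was 110401 to 124398 in NFFSE and 83046 to 94432 in NFFS. The log2 difference of Wif1 was -3.81, and -4.40 without NFFSE replicate 3, that of Tagln was -6.37, and -7.20 without NFFSE replicate 1 and -5.76 without NFFSE replicate 2, and that of Acta2 was -1.59, and -0.58 with the mean of its probe sets, where its call ended (adjusted p = 0.47, limma, in a range of 0.00086 to 0.47). Of the markers that passed, Thy1, Vim, Wif1, Tagln and Acta2 moved with the lower chains and Twist2, Krt14, Epcam and Itga6 against them. The part of these markers in the result was not tested. In such bulk RNA, fewer cells of a type and less RNA in each of its cells cannot be told apart.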

How the data were processed

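Total RNA of 6 cultures of vibrissa bulge cells, 3 in NFFSE and 3 in NFFS medium, was measured on Affymetrix Mouse Genome 430 2.0 arrays from 100 ng per array. The labels name the RNeasy mini kit and the methods the RNeasy Plus micro Kit. The deposited values are the authors' MAS5 intensity values on a linear scale (the sources used here do not name the version), and each array had the same mean of 500.003 without the lowest and highest 2% of its values, which was checked.

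Of 45101 probe sets, 64 controls were left out, and 34945 had 1 gene symbol, 932 several and 9160 no listed gene. Gene numbers of 34741 probe sets were found in a GRCm38.p6 table, with 0 symbols updated. For each of 18193 genes, 1 probe set was kept, that of the highest mean. The fit to log2 signals used limma (version 3.58.1, R 4.3.3) with an intensity trend, tested on simulated data first, and adjusted over all genes. Intervals cover 95%. Folds and bounds are from means of log2 signals, so that a bound can exceed the ratio of the linear means. If any array of the lower medium lay at background (22.7, of 18 control values, a rule chosen after seeing the data), the fold is a lower bound against the higher of 22.7 and each array's signal.

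Named were every chain past the threshold, every chain of types I, III, IV, V, VI, XII and XVIII, other chains that were not dim, and in each pathway class the genes past the threshold (up to 6 by smallest p) with Serpinh1, P4ha1, Lox, Itga2, Itgb1, Ddr1 and Sparc. Col8a2, P4hb, P3h3, Plod2, Mmp2, Mmp8, Mmp14 and the cell markers were named beyond this rule, after their values were seen. The chains and lists were chosen with earlier results of these data known. The pairing of arrays by replicate number rests on the series design, in which each repeat was divided between the media. Deviations from the group means correlated at 0.066, 0.042 and 0.037 within the pairs. Labels call the arrays biological replicates, and their number limits the precision. Of the alternatives, the methods' t-test is a two-sided test with equal variances on the same values. Of the listed genes, Col6a6, Col28a1, Fkbp10, Adamts2, Adamts14, Loxl2 and Itga11 had no probe set of their own.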

Additional observations from a re-analysis of the deposited data

How the results depend on the processing

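Over 15 alternatives, the count of lower chains was 11 to 16 and Col8a1 was called higher under every one. The lower chains numbered 12 when probe sets were averaged, 13 with a floor at background, 15 with 16 added to the signals, 13 with arrays centered on their medians, 14 with quantile normalization, 15 with a filter on dim genes, 14 without the intensity trend, 11 with the methods' t-test and 15 with the replicate number as a block, a pairing that changed no call among the chains and called 13 pathway genes lower, the same 11 and 2 more. Leaving out each array in turn gave 13 to 16 lower chains, 1 higher chain, 11 to 14 higher pathway genes and 9 to 12 lower ones. With the methods' t-test 7 pathway genes were lower instead of 11. Of the 16 called chains 8 passed under every alternative: Col4a4, Col4a5, Col5a1, Col5a2, Col6a1, Col8a1, Col14a1 and Col16a1. The log2 difference of Tfg reversed to -0.11 with the mean of its probe sets, of which the cause was not tested. Col8a2, dim in both media, was called lower with the floor, without the trend and with the methods' t-test.

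The calls of Pcolce2 ended without NFFSE replicate 1 (adjusted p = 0.091, limma) or 2 (0.13) or NFFS replicate 1 (0.093) or 3 (0.061), of Pcolce without NFFSE replicate 1 (0.058) or 3 (0.054), of Ctsk without NFFS replicate 1 (0.057), and of Tll1 without any 1 array except NFFS replicate 3 (0.059 to 0.16). Over all alternatives these adjusted p values ran from 0.018 to 0.13 for Pcolce2, 0.0042 to 0.12 for Pcolce, 0.0094 to 0.057 for Ctsk and 0.025 to 0.16 for Tll1. The call of P4hb ended without NFFSE replicate 2 (adjusted p = 0.054, limma, in a range of 0.0016 to 0.071) and that of Plod2 without NFFSE replicate 1 (0.064, in a range of 0.011 to 0.13). Among the cell markers, Vim lost its call under 3 alternatives (the floor, no trend, the methods' t-test, in a range of 0.0038 to 0.097). Krt14 (adjusted p = 0.067), Epcam (0.057) and Acta2 (0.071) lost theirs in that t-test, Acta2 also with the mean of its probe sets. Chains near background (7 to 13 of 40 on each array) limit what these signals can show.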
